A study of Homo sapiens with 9 samples.

Results

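The genes of 10 secreted signals were followed among the 62257 gene rows of the deposited tables: the CXC chemokines CXCL1, CXCL2, CXCL3, CXCL5 and CXCL8, the CC chemokines CCL2 and CCL20, and the interleukins IL6, IL1A and IL1B. They were chosen by name, as rows whose Ensembl identifier maps to the listed symbols, and each symbol matched 1 row. RNA was sequenced from A549 cells, a long-established line of epithelial cells from a human lung adenocarcinoma, in 3 groups of 3 libraries, 9 in all. Control cells received phosphate-buffered saline. The second group, DDP_apoEV, received apoptotic extracellular vesicles, the membrane-bound particles shed by dying cells, made by cells killed with cisplatin, a platinum compound that forms DNA crosslinks. The third group, STS_apoEV, received such vesicles made after staurosporine, which inhibits many protein kinases. Exposure lasted 96 h in every group. The cells of origin of the vesicles, their dose and whether replicates were separate cultures are not in the labels, so p-values cover the spread between these 9 libraries, which may be technical. Cells given either drug without vesicles were not analysed here.

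Chemokines are small secreted proteins that direct the migration of leukocytes. CXCL1, CXCL2, CXCL3, CXCL5 and CXCL8 carry a Glu-Leu-Arg motif before the CXC cysteines and attract neutrophils through the receptors CXCR1 and CXCR2. CCL2 attracts monocytes through CCR2, and CCL20 attracts CCR6-bearing lymphocytes and dendritic cells. IL1A and IL1B act on the same receptor, IL1R1 with its partner IL1RAP, and IL6 acts through IL6R and IL6ST. Transcription of many of these genes in epithelial cells is driven by NF-kB, a family of transcription factors activated by IL-1 and TNF, and their short-lived mRNAs carry AU-rich elements bound by ZFP36 and related proteins.

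The CXC genes lie in 1 cluster on chromosome 4, from 73740519 to 74099196 in the hg38 coordinates of the deposited tables, a span of 359 kb. CXCL8 (ENSG00000169429) lies at chr4:73740519-73743716 on the plus strand, CXCL1 (ENSG00000163739) at chr4:73869393-73871308 on the plus strand, CXCL5 (ENSG00000163735) at chr4:73995642-73998677, CXCL3 (ENSG00000163734) at chr4:74036589-74038807 and CXCL2 (ENSG00000081041) at chr4:74097040-74099196, the last 3 on the minus strand. CCL2 (ENSG00000108691) lies at chr17:34255274-34257208 and CCL20 (ENSG00000115009) at chr2:227805739-227817564. IL1A (ENSG00000115008) and IL1B (ENSG00000125538) neighbour each other at chr2:112773925-112784493 and chr2:112829751-112836816, and IL6 (ENSG00000136244) lies at chr7:22725884-22732002. The stretch of 60 bases from 110 to 51 bases before the RefSeq transcription start (GRCh38.p14) is printed for 4 CXC genes, 5′ to 3′ on the gene's own strand, because these genes moved together and share the letters GGAATTTCC, which are in capitals and match the known NF-kB binding motif.
CXCL8 chr4:73740459-73740518 plus strand: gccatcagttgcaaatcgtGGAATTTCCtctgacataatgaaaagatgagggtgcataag
CXCL1 chr4:73869283-73869342 plus strand: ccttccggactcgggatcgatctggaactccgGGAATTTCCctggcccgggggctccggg
CXCL2 chr4:74099246-74099305 minus strand: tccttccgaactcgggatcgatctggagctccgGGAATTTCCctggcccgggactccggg
CXCL5 chr4:73998728-73998787 minus strand: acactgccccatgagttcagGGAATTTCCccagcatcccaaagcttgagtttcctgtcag

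All 5 CXC members held GGAATTTCC in the 250 bases before their start. The letters were picked as those that all 5 share, so this count was set in advance and is no test. They occurred in 0.413% of the 35116 RefSeq promoter windows of that length searched on both strands, and for 0.502% of gene symbols. In CXCL8 the letters stood at positions -91 to -83 from the start, in CXCL5 at -90 to -82, in CXCL1 and CXCL3 at -78 to -70, and in CXCL2 at -77 to -69. The looser motif GGANTTTCC, where N is any base and which includes GGAATTTCC, added IL6 with GGATTTTCC at -72 to -64. The looser motif was thus held by 6 of the 9 genes with a promoter entry, against 1.45% of all windows and 1.79% of gene symbols. Of these 6, the 5 CXC members were set in advance by the choice of letters, so this count is no test either. It was absent from these windows of IL1A, IL1B and CCL20. The AP-1 motif TGANTCA occurred in CXCL8 and IL1A and in 6.57% of all windows, and the TATA box letters TATAAA occurred in CCL20, CXCL8 and IL1A and in 10.7% of all windows. The promoters of CXCL1 and CXCL3 were 81.4% identical over an alignment of 250 bases each, those of CXCL2 and CXCL3 73.4%, and those of CXCL1 and CXCL2 70.1%, while pairs with CXCL5 or CXCL8 reached 43.9% to 53.9%. A match is a description of letters, and no binding was measured.

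Total counts per library ran from 13799950 to 16526399. Summed counts scaled to library total (CPM) of 10 A549 epithelial markers were 27547 to 28496 in control, 19552 to 20927 with DDP_apoEV and 25811 to 26217 with STS_apoEV, and CDKN2A and CDKN2B, which A549 cells lack by deletion, had 0 counts in every library. Of 16 leukocyte markers, which mark cells that themselves make many of these signals, 3 exceeded a mean of 1 CPM (CD14, ITGAM and ITGB2), PTPRC had 3 counts and CD3E had 2 counts over all 9 libraries, and FCGR3B and S100A8 had 0. The summed leukocyte markers were nonetheless higher with STS_apoEV, at 24.8 to 29.1 CPM, than in control (12.1 to 19.9) or with DDP_apoEV (15.9 to 17.4), with CD14 at 14.0 to 19.7 against 8.09 to 11.4 in control. Endothelial markers summed to 2.83 to 4.52 CPM with STS_apoEV, 1.78 to 2.07 in control and 1.63 to 1.82 with DDP_apoEV, and fibroblast markers to 3.66 to 4.13, 3.20 to 3.61 and 3.09 to 3.57 CPM. The part of these marker levels in the cytokine results was not tested.

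In control cells, CXCL5 was by far the most abundant of the 10 transcripts. On the scale of FPKM, in which fragment numbers are divided by transcript length and depth and which allows genes of different length to be compared, CXCL5 was at 232 ± 23.5 (SD, n = 3 here and for each group below). CXCL1 followed at 49.7 ± 13.7, CXCL8 at 38.8 ± 8.22 and CCL2 at 36.1 ± 2.83 FPKM, and the ranges of these neighbours overlapped. CXCL2 stood below them at 28.7 ± 2.36, CXCL3 at 7.56 ± 1.37 and CCL20 at 1.23 ± 0.721 FPKM, each without overlap with the next. The interleukins had at most 11 counts in any control library, with IL1B at 0.154 ± 0.0742, IL1A at 0.110 ± 0.0152 and IL6 at 0.0681 ± 0.0488 FPKM, with overlapping ranges. With DDP_apoEV, CXCL1, CCL2, CXCL2 and CXCL8 followed CXCL5 in that order with each pair of neighbours overlapping. With STS_apoEV, CXCL8 and CXCL1 were next in order with overlapping ranges, above the range of CCL2.

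**Figure D1:**
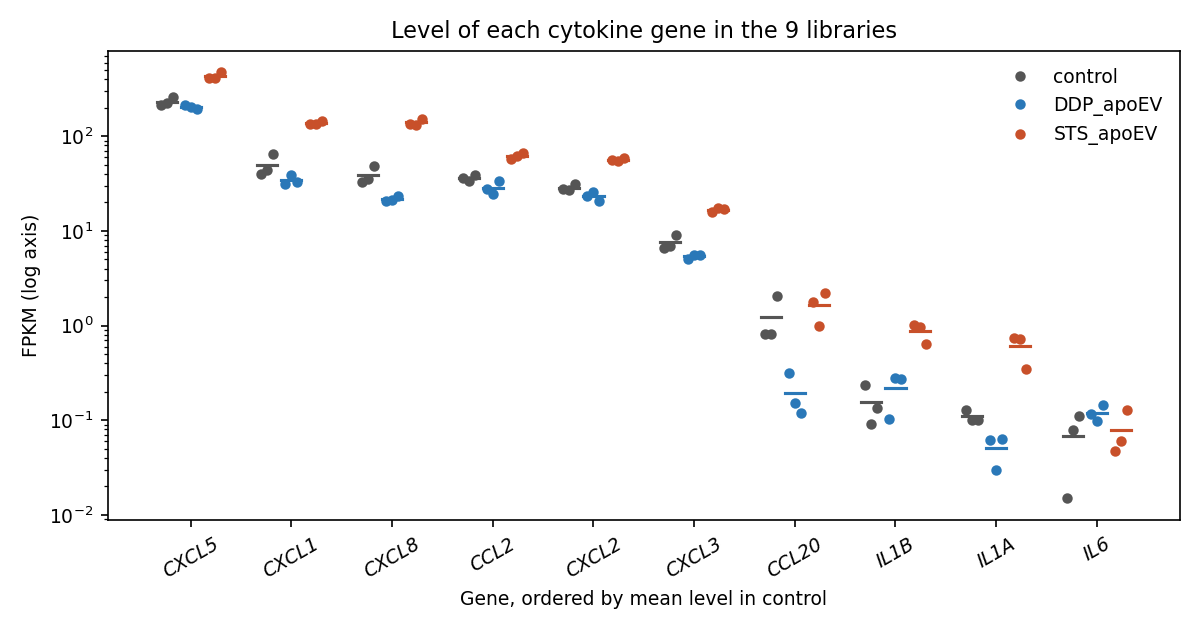
FPKM of each of the 10 genes on a log axis in every library, with the group mean as a bar; each point is 1 of 3 libraries per group. CXCL5 is the highest gene in each group, and the STS_apoEV points of the 5 CXC genes and of CCL2 lie above all control and DDP_apoEV points. By CPM, all STS_apoEV libraries lay above all control libraries for 3663 of the 16947 genes tested, and above all DDP_apoEV libraries for 4124.

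With STS_apoEV, the neutrophil-attracting CXC chemokines, CCL2 and both IL-1 genes were higher than in control. In the test across all genes (edgeR's quasi-likelihood test on the counts, Benjamini-Hochberg adjustment over 16947 genes, called at an adjusted p under 0.05), 8 of 9 tested members were called, all of them higher, where 15.9% of all genes tested were called higher and 16.8% lower. IL1A passed the filter on low counts only through the STS_apoEV libraries and so adds no support to that count, which is 7 of 8 without it. CCL20 was the 1 tested member that was not called. IL6, the tenth gene, was under the filter. The summed leukocyte and endothelial markers given above were also higher with STS_apoEV, while the pan-leukocyte marker PTPRC had 3 counts in all. In RNA from a whole culture, a level can differ because more cells make the transcript or because each cell holds more of it, and these cannot be told apart here.

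With DDP_apoEV most of the chemokines were lower than in control, CCL20 by far the most. Of 9 tested members 5 were called, all of them lower (CXCL8, CXCL3, CXCL2, CCL2 and CCL20), where 7.16% of all genes tested were called higher and 8.32% lower. CXCL1, CXCL5, IL1A and IL1B did not pass. Both comparisons use the same 3 control libraries. Control replicate 3 was the highest control library for 8 of the 10 genes, and several of the DDP_apoEV calls depend on it, as given below for each gene. Without any 1 library, 3 to 6 members were called with DDP_apoEV and 8 with STS_apoEV. Without control replicate 3, and likewise without DDP_apoEV replicate 1, 3 were called.

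Between the vesicle types, all 9 tested members were higher with STS_apoEV than with DDP_apoEV, where 20.2% of all genes tested were called higher and 19.5% lower. IL1A, tested only because of its STS_apoEV libraries, adds nothing to that count, which is 8 of 8 without it. The median log2 difference over all genes tested was 0.027. The fold differences of the abundant members ran from 2.16 for CXCL5 and 2.19 for CCL2 through 2.47 for CXCL2, 3.15 for CXCL3 and 4.07 for CXCL1 to 6.53 for CXCL8. Those of the scarce members were 4.03 for IL1B, 8.44 for CCL20 and 11.2 for IL1A, with log2 standard errors of 0.421, 0.485 and 0.672. For each of these 9 genes the lowest STS_apoEV library lay above the highest DDP_apoEV library, as it did for 4124 of the 16947 genes tested, and the groups did not overlap in either direction for 47.5% of them. This comparison uses no control library, and all 9 calls were kept whichever library was left out.

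**Figure D2:**
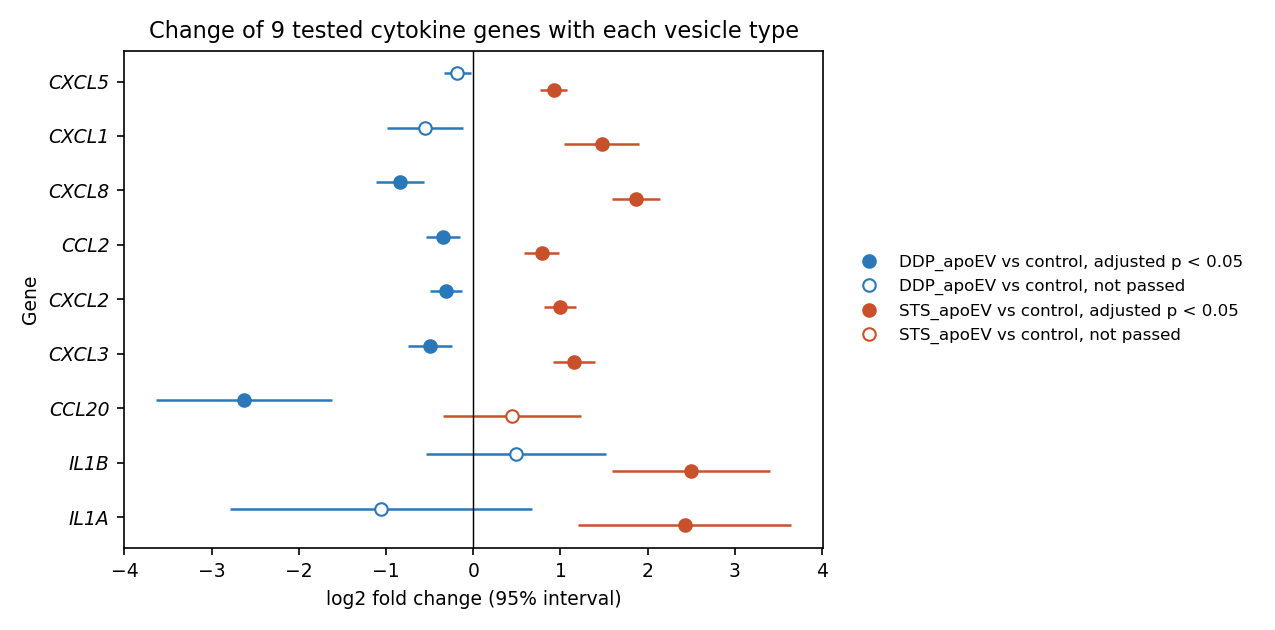
Log2 fold change against control of the 9 tested genes with each vesicle type, with the 95% interval from the edgeR fit; filled points passed an adjusted p under 0.05. With STS_apoEV 8 of 9 points are filled and lie right of 0; with DDP_apoEV 5 are filled and lie left of 0, CCL20 farthest at -2.63.

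CXCL8, also called interleukin-8 and a strong human neutrophil attractant, had the log2 fold change of largest size among the CXC members with both vesicle types. Its level was 33.1, 35.0 and 48.2 FPKM in the 3 control libraries, 20.5, 21.4 and 23.5 with DDP_apoEV, and 135, 132 and 153 with STS_apoEV. The 3 groups did not overlap, with every STS_apoEV library above every control library and every DDP_apoEV library below them. Such separation was common, here and for the genes below. Over all genes tested, STS_apoEV and control did not overlap for 43.3%, and DDP_apoEV and control for 32.2%. The log2 fold change against control was 1.87 (SE 0.126, adjusted p = 1.28e-07) with STS_apoEV, or 3.65-fold higher. With DDP_apoEV it was -0.84 (SE 0.128, adjusted p = 0.000588), or 1.79-fold lower, and this call was kept without each library in turn. Between the vesicle types CXCL8 differed 6.53-fold.

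CXCL1, a neutrophil attractant that acts mainly through CXCR2, was at 39.8, 44.1 and 65.3 FPKM in control, 31.3, 38.5 and 32.5 with DDP_apoEV and 133, 133 and 143 with STS_apoEV. The control libraries were the most scattered, with replicate 3 apart from the other two, yet no library of 1 group entered the range of another. CXCL1 rose by a log2 fold change of 1.47 (SE 0.183, adjusted p = 5.02e-04) with STS_apoEV, or 2.78-fold. With DDP_apoEV its log2 fold change was -0.55 (SE 0.188, adjusted p = 0.1), which did not pass. Leaving out control replicate 3 gave -0.30 with an adjusted p of 0.0391, and leaving out control replicate 1 gave -0.69 with an adjusted p of 0.0042.

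CXCL2 and CXCL3, close relatives of CXCL1 and likewise CXCR2 ligands, moved with it at lower levels. CXCL2 was at 27.7, 27.0 and 31.4 FPKM in control, 23.4, 25.5 and 20.8 with DDP_apoEV and 55.5, 54.7 and 59.2 with STS_apoEV. CXCL3 was at 6.57, 6.99 and 9.12 FPKM in control, 4.99, 5.56 and 5.56 with DDP_apoEV and 15.9, 17.2 and 16.9 with STS_apoEV. For both genes the 3 groups were separate, with STS_apoEV highest and DDP_apoEV lowest. With STS_apoEV, CXCL2 rose by 0.99 on the log2 scale (SE 0.0891, adjusted p = 1.23e-10). CXCL3 rose by 1.16 (SE 0.117, adjusted p = 1.5e-09).

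With DDP_apoEV, CXCL2 had a log2 fold change of -0.31 (SE 0.0922, adjusted p = 0.0176). That call depended on 3 libraries. It was -0.24 (adjusted p = 0.139) when control replicate 3 was left out, -0.24 (adjusted p = 0.127) when DDP_apoEV replicate 3 was, and -0.32 (adjusted p = 0.05 after rounding) when DDP_apoEV replicate 1 was. CXCL3 had a log2 fold change of -0.50 (SE 0.124, adjusted p = 0.00445), and -0.34 (adjusted p = 0.0891) when control replicate 3 was left out. CXCL1, CXCL2 and CXCL3 are near-identical in places, so that reads could be assigned to the wrong copy or dropped. The 50-base stretches of GENCODE v29 transcripts were compared only among genes with chemokine or interleukin names. Of these stretches, 4.81% of CXCL1, 12.5% of CXCL2 and 6.01% of CXCL3 also occurred in another such gene, while 0% did for the remaining 7 members. How such reads were counted upstream is not known from the labels.

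CXCL5, an epithelial CXC chemokine and the dominant transcript of the set, was at 212, 225 and 258 FPKM in control, 213, 206 and 196 with DDP_apoEV and 413, 416 and 476 with STS_apoEV. The STS_apoEV libraries stood apart, while the control and DDP_apoEV ranges overlapped. CXCL5 rose by 0.92 on the log2 scale with STS_apoEV (SE 0.0769, adjusted p = 2.14e-11), or 1.90-fold, the smallest rise among the CXC members. With DDP_apoEV its log2 fold change of -0.19 (SE 0.0765, adjusted p = 0.102) did not pass, with a 95% interval of -0.34 to -0.03.

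CCL2, the main monocyte attractant, was at 35.8, 33.4 and 39.1 FPKM in control, 27.4, 24.6 and 33.8 with DDP_apoEV and 56.9, 61.5 and 66.1 with STS_apoEV. DDP_apoEV replicate 3 lay within the control range, and the STS_apoEV libraries lay above both groups. CCL2 rose by 0.78 on the log2 scale with STS_apoEV (SE 0.0955, adjusted p = 2.28e-07), or 1.72-fold. With DDP_apoEV its log2 fold change was -0.35 (SE 0.0974, adjusted p = 0.0141). It no longer passed at -0.28 (adjusted p = 0.0941) when control replicate 3 was left out, at -0.32 (adjusted p = 0.0703) when DDP_apoEV replicate 1 was, or at -0.25 (adjusted p = 0.113) when DDP_apoEV replicate 2 was.

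CCL20, the only known chemokine ligand of CCR6, was the scarcest of the chemokines and had the largest fall. It had 20, 19 and 48 counts in control, 8, 4 and 3 with DDP_apoEV and 41, 24 and 51 with STS_apoEV. Every DDP_apoEV library was below every other library, and the control and STS_apoEV ranges overlapped, with control replicate 3 among the STS_apoEV libraries. With DDP_apoEV the log2 fold change was -2.63 (SE 0.495, adjusted p = 0.000255), and -2.04 (adjusted p = 0.00774) without control replicate 3. Summed over the libraries this was 15 counts against 87, a depth-scaled ratio of 0.157 (exact 95% interval 0.0845 to 0.274, counting error only). With STS_apoEV the log2 fold change of 0.45 (SE 0.387, adjusted p = 0.412) did not pass, with a 95% interval of -0.34 to 1.24. Without control replicate 3 it was 1.03 (adjusted p = 0.0756).

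IL1B, a secreted cytokine that is cleaved from a precursor, had 11, 4 and 6 counts in control, 5, 14 and 13 with DDP_apoEV and 45, 44 and 28 with STS_apoEV. The STS_apoEV libraries were all above the others, and the other groups overlapped. IL1B rose by 2.50 on the log2 scale with STS_apoEV (SE 0.447, adjusted p = 4.04e-05). The summed counts of 117 against 21 gave a ratio of 5.75 (exact 95% interval 3.59 to 9.63). With DDP_apoEV the log2 fold change was 0.49 (SE 0.506, adjusted p = 0.589), the only positive value of the 9 tested members in that comparison.

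IL1A, an IL-1 form whose precursor is itself active and is released from damaged cells, had 4, 3 and 3 counts in control, 2, 1 and 2 with DDP_apoEV and 22, 22 and 10 with STS_apoEV. Each STS_apoEV library exceeded each other library, with replicate 3 at less than the other two. IL1A rose by 2.43 on the log2 scale with STS_apoEV (SE 0.601, adjusted p = 0.00184), and 54 counts against 10 gave a ratio of 5.57 (exact 95% interval 2.81 to 12.3). With DDP_apoEV, 5 counts against 10 gave a ratio of 0.456 (0.122 to 1.47), and the log2 fold change of -1.06 (SE 0.851, adjusted p = 0.463) did not pass. IL6, a cytokine of the acute-phase response, had 1, 5 and 7 counts in control, 8, 7 and 10 with DDP_apoEV and 3, 4 and 8 with STS_apoEV. The 3 groups overlapped, and the summed ratios against control were 1.76 (0.865 to 3.74) with DDP_apoEV and 1.19 (0.528 to 2.72) with STS_apoEV. No difference in IL6 was detectable at this depth.

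CXCL8 and, by group means, CXCL1 took a larger part of the set with STS_apoEV, and a smaller part with DDP_apoEV, than in control. The summed level of the 10 genes was 394 ± 51.9 FPKM in control, 319 ± 5.38 with DDP_apoEV and 849 ± 59.0 with STS_apoEV. CXCL5 made up 58.9% of that sum in control, 64.3% with DDP_apoEV and 51.2% with STS_apoEV. CXCL8 made up 9.78%, 6.85% and 16.5% of it. The share of CXCL1 was 12.5%, 10.7% and 16.1%, with overlapping ranges in control and DDP_apoEV. Within each library, CXCL8 stood at 15.6%, 15.6% and 18.7% of the CXCL5 level in control, 9.59%, 10.4% and 12.0% with DDP_apoEV and 32.8%, 31.8% and 32.1% with STS_apoEV, and the groups did not overlap. The log2 ratio of CXCL8 to CXCL5 was 0.96 higher with STS_apoEV than in control and 0.64 lower with DDP_apoEV (difference -0.64). For each, an exact two-sided permutation test gave p = 0.1, the smallest that 3 against 3 allows, or 0.136 adjusted over the 15 tests of 5 ratios in 3 comparisons. The log2 ratio to CXCL5 differed by 0.58 for CXCL1 and 0.25 for CXCL3 with STS_apoEV, and by -0.34 and -0.31 with DDP_apoEV (exact permutation p = 0.1 for each). For CXCL2 it differed by 0.07 with STS_apoEV (exact permutation p = 0.2) and by -0.13 with DDP_apoEV (exact permutation p = 0.3). The ratio of CCL2 to CXCL5 differed by -0.14 with STS_apoEV (exact permutation p = 0.1) and by -0.17 with DDP_apoEV (exact permutation p = 0.4).

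**Figure D3:**
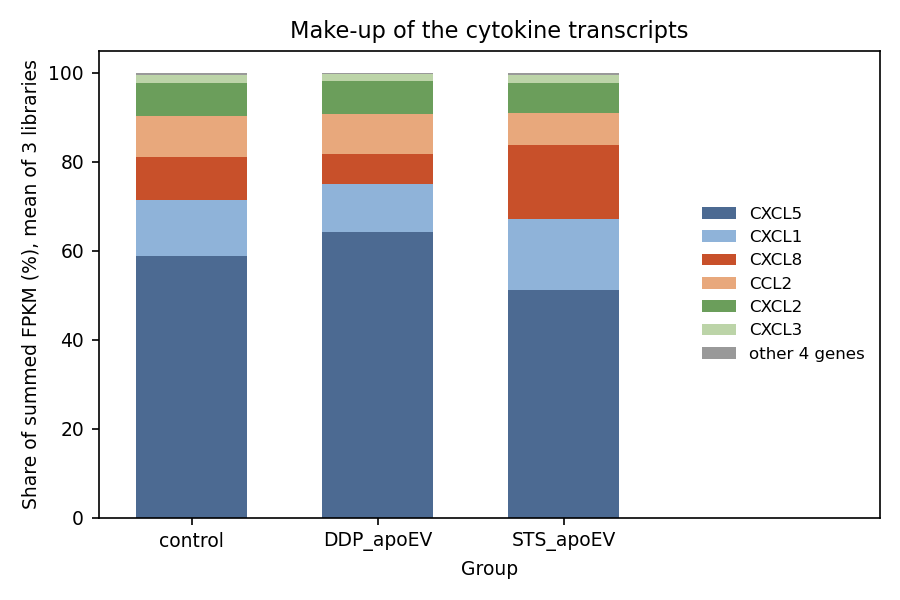
Share of the summed FPKM of the 10 genes taken by each gene, as the mean of 3 libraries per group, in stacked bars from 0 to 100%. CXCL5 takes 58.9%, 64.3% and 51.2% in control, DDP_apoEV and STS_apoEV, and CXCL8 takes 9.78%, 6.85% and 16.5%.

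Within the chromosome 4 cluster, the log2 fold change with STS_apoEV was highest for CXCL8 at one end and lowest for CXCL5, with CXCL1 next below CXCL8. The remaining chemokine genes of the cluster were almost silent: over all 9 libraries CXCL6 had 29 counts, PPBP 7, PF4 2 and PF4V1 0. CXCL6 was the only one of the 3 of these with a promoter entry to hold GGAATTTCC. Of 7 tested neighbours that are not chemokines, 3 were higher with STS_apoEV (BTC, an EGF-family growth factor, at a log2 fold change of 1.17, RASSF6 at 0.69 and AFP at 2.41, which passed the filter only through the STS_apoEV libraries) and AREG, another EGF-family factor, was lower at -0.85. With DDP_apoEV, EREG was higher at 0.83, and PARM1 at -1.39 and RASSF6 at -0.52 were lower. Over all genes tested, 15.9% were called higher and 16.8% lower with STS_apoEV, and 7.16% and 8.32% with DDP_apoEV. MTHFD2L, next to CXCL2, did not pass in either comparison (0.14 with DDP_apoEV and 0.19 with STS_apoEV). Around IL1A and IL1B on chromosome 2, the 3 of 5 tested neighbours that were called with STS_apoEV were lower (CKAP2L at -0.46, PSD4 at -0.37 and POLR1B at -0.32). The PSD4 call was lost without STS_apoEV replicate 3 (-0.26, adjusted p = 0.0961).

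**Figure D4:**
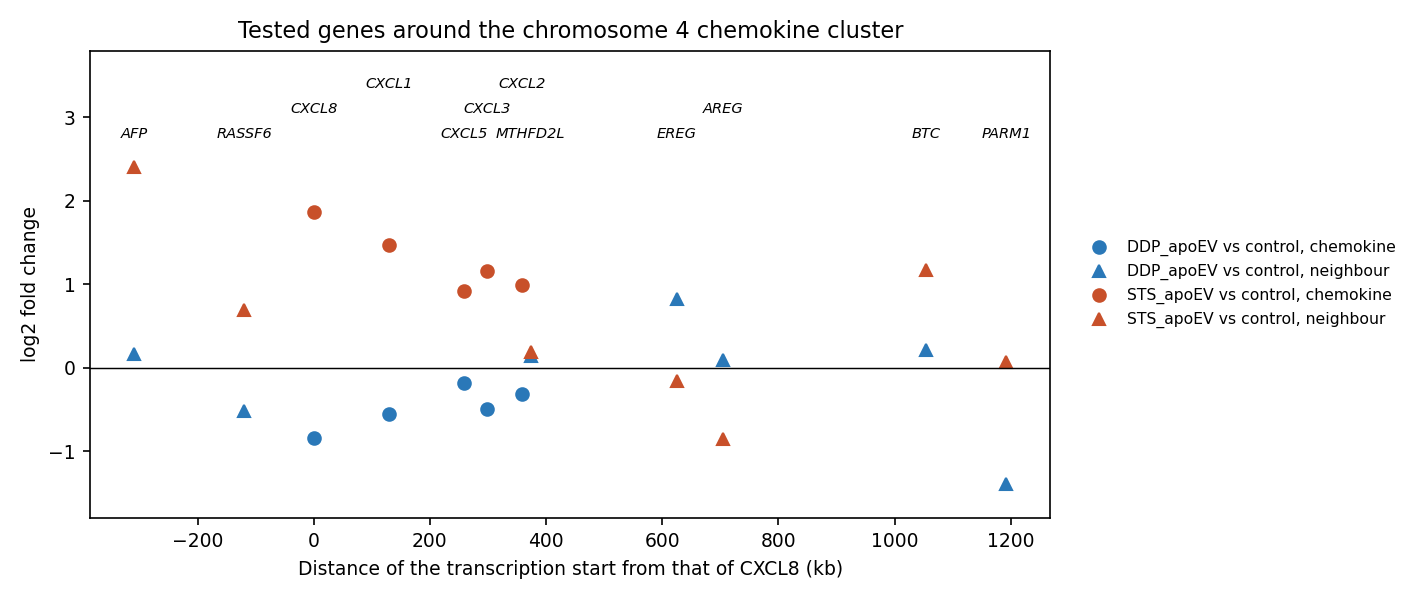
Log2 fold change against control of each tested gene around the chemokine cluster, by distance of its start from that of CXCL8 in kb; circles are the 5 CXC chemokines and triangles 7 neighbours, blue for DDP_apoEV and red for STS_apoEV. The 5 circles lie above 0 with STS_apoEV and below 0 with DDP_apoEV, and the triangles lie on both sides.

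The receptors of these chemokines were close to absent in A549 cells. CXCR1, CCR2 and CCR6 had 0 CPM in every group, and CXCR2 had a mean of at most 0.0701 CPM. The IL-1 receptor IL1R1 was present, at 74.8 ± 2.77 CPM in control and 77.4 ± 1.94 with STS_apoEV, and was lower with DDP_apoEV at 54.9 ± 3.28 (log2 fold change -0.45, adjusted p = 0.000101). Its partner IL1RAP, the decoy receptor IL1R2 and the IL-6 receptor subunit IL6ST did not pass against control, with log2 fold changes of 0.03, 0.63 and -0.02 with STS_apoEV and 0.16, -0.70 and -0.10 with DDP_apoEV. IL1R2 was higher with STS_apoEV than with DDP_apoEV by 1.32 (adjusted p = 0.00091). IL1RN, the natural antagonist of IL-1, was under the filter at 0.0691 CPM in the control mean, 0.143 in that of DDP_apoEV and 0.415 in that of STS_apoEV. Of 16 tested receptors and decoys in all, 3 rose and 1 fell with STS_apoEV (all genes tested: 15.9% higher and 16.8% lower). With DDP_apoEV, 3 rose and 2 fell (all genes tested: 7.16% and 8.32%). IL6R rose by 0.80 with STS_apoEV. CXCR4, the receptor of CXCL12, fell by 2.62 on the log2 scale with STS_apoEV and by 1.28 with DDP_apoEV, from 10.8 ± 1.46 CPM in control to 1.76 ± 0.250 and 4.47 ± 1.92.

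Among 30 other chemokine genes, 4 passed the filter (CXCL16, CX3CL1, CCL24 and CCL26), and these did not pass the test against control, with log2 fold changes of -0.04, -0.31, -1.36 and -0.99 with DDP_apoEV and -0.08, 1.06, 0.97 and 0.26 with STS_apoEV. Between the vesicle types, CCL24 was higher with STS_apoEV by 2.34 and CCL26 by 1.25, both eosinophil attractants, and CCL24 passed as lower than control with DDP_apoEV once DDP_apoEV replicate 3 was left out (-2.83, adjusted p = 0.00507), while the CCL26 call between the vesicle types was lost without STS_apoEV replicate 2 (0.81, adjusted p = 0.141). Of 13 tested interleukins and growth cytokines outside the 10, 3 rose with DDP_apoEV (all genes tested: 7.16% higher and 8.32% lower). With STS_apoEV, 8 rose and 2 fell (all genes tested: 15.9% and 16.8%). CSF2 and IL33 are 2 of the 8 and passed the filter only through the STS_apoEV libraries, which leaves 6 rises among the other 11. IL32 rose by 1.39, IL15 by 0.73 and CLCF1 by 0.40 with STS_apoEV, while LIF fell by 0.47. IL11, a cytokine of the IL-6 family, rose by 2.18 with DDP_apoEV (adjusted p = 6.51e-11) and by 0.77 with STS_apoEV, from 3.68 ± 0.354 to 16.7 ± 2.25 and 6.26 ± 1.44 CPM. The IL11 call with STS_apoEV was lost in limma on log2(FPKM + 1) with no filter (0.47, adjusted p = 0.0737). IL11 was lower with STS_apoEV than with DDP_apoEV by a log2 difference of -1.42 (adjusted p = 4.1e-08).

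A list of NF-kB and C/EBP transcription factors and their inhibitors, which also held the AP-1 subunits JUN, FOS and FOSL1, had 21 tested genes. With STS_apoEV, 11 rose and 1, JUN, fell (all genes tested: 15.9% higher and 16.8% lower). With DDP_apoEV, 7 rose and 3 fell (all genes tested: 7.16% and 8.32%). The median log2 fold change was 0.41 with STS_apoEV and 0.05 with DDP_apoEV, against 0.01 and -0.0033 over all genes. Several NF-kB genes rose with both vesicle types. RELB, an NF-kB subunit, was at 40.2 ± 4.79 CPM with STS_apoEV and 30.4 ± 3.35 with DDP_apoEV, against 15.2 ± 1.01 in control. TNFAIP3, an NF-kB inhibitor that is itself an NF-kB target, was at 45.4 ± 3.23 CPM with STS_apoEV, 18.7 ± 4.91 with DDP_apoEV and 7.89 ± 1.34 in control, log2 rises of 2.53 and 1.25. With DDP_apoEV these rises stood beside the lower levels of CXCL8 and CCL20. CEBPD, a C/EBP factor, fell by 1.35 with DDP_apoEV (adjusted p = 7.98e-08) and did not pass with STS_apoEV (-0.23, adjusted p = 0.155), where it passed once STS_apoEV replicate 2 was left out (-0.44, adjusted p = 0.00143). Among the AP-1 subunits, JUN fell by 0.43 with DDP_apoEV and by 0.68 with STS_apoEV, and FOSL1 rose by 1.17 with DDP_apoEV (adjusted p = 9.74e-08). FOS, added after its values were seen, is 1 of the 11 rises of the list with STS_apoEV. FOS was at 215 ± 2.88 CPM with STS_apoEV, against 93.4 ± 35.4 CPM in control cells and 53.6 ± 18.6 CPM after DDP_apoEV. It was 2.30-fold higher with STS_apoEV than in control (adjusted p = 0.0321), and did not pass without control replicate 1 (adjusted p = 0.108), control replicate 2 (0.106), DDP_apoEV replicate 1 (0.0537) or any 1 STS_apoEV library (0.0764 to 0.0816).

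Of 17 tested genes of IL-1 receptor signalling, 4 rose and 2 fell with STS_apoEV (all genes tested: 15.9% higher and 16.8% lower). With DDP_apoEV, 1 rose and 3 fell (all genes tested: 7.16% and 8.32%). IRAK2, a kinase-like adaptor of the IL-1 receptor, rose with both, by 1.82 with STS_apoEV and 0.98 with DDP_apoEV. PELI1, a ubiquitin ligase of that pathway, fell by 1.39 with DDP_apoEV. Its fall of 0.41 with STS_apoEV did not pass without control replicate 2 (-0.36, adjusted p = 0.112), STS_apoEV replicate 1 (-0.43, 0.063) or STS_apoEV replicate 2 (-0.33, 0.129). Of 11 tested genes of IL-1 release and processing, 5 rose and 2 fell with STS_apoEV, and 2 rose and 1 fell with DDP_apoEV. S100A13, which takes part in IL1A export, rose by 0.76 with STS_apoEV, and CASP4, an inflammatory caspase, rose by 0.48. The 2 that fell with STS_apoEV were CAPN2, at 275 ± 5.29 CPM against 385 ± 26.1 in control, and HAX1, at 71.9 ± 7.02 against 100 ± 1.57. CASP1, the protease that cleaves the IL1B precursor, was under the filter at 0.516, 0.291 and 0.697 CPM in control, DDP_apoEV and STS_apoEV.

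The factors that bind AU-rich elements and shorten the life of cytokine mRNAs included ZFP36, also called tristetraprolin. It was at 117 ± 6.53 CPM with STS_apoEV and 23.8 ± 1.94 with DDP_apoEV, against 37.8 ± 6.90 in control. Its log2 fold change was 1.63 with STS_apoEV (adjusted p = 1.62e-13) and -0.67 with DDP_apoEV (adjusted p = 3.32e-05), the same directions as CXCL8. Of 16 tested decay and stability factors, 6 rose and 1 fell with STS_apoEV (all genes tested: 15.9% higher and 16.8% lower). With DDP_apoEV, 2 rose and 3 fell (all genes tested: 7.16% and 8.32%). ZFP36L1 rose with both, by 0.94 with STS_apoEV and 0.40 with DDP_apoEV, and ZC3H12A, the nuclease regnase-1 that cleaves IL6 mRNA, rose by 0.91 with STS_apoEV. ZFP36L2 fell by 0.79 with DDP_apoEV.

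Of 11 tested genes of IL-6 family signalling, 3 rose and 3 fell with STS_apoEV (all genes tested: 15.9% higher and 16.8% lower). With DDP_apoEV, 4 rose and 2 fell (all genes tested: 7.16% and 8.32%). SOCS3, a feedback inhibitor of that pathway, rose by 1.01 with DDP_apoEV and did not pass with STS_apoEV (0.13, adjusted p = 0.541), and STAT3, its transcription factor, fell by 0.52 with STS_apoEV. Its log2 fold change with DDP_apoEV was 0.23 (adjusted p = 0.0301) and passed only while all 3 control libraries and DDP_apoEV replicates 1 and 2 were in the fit. Leaving out control replicate 1, 2 or 3 gave adjusted p = 0.0726, 0.139 and 0.0543, and leaving out DDP_apoEV replicate 1 or 2 gave 0.107 and 0.124. It did not pass with the replicate block (0.23, adjusted p = 0.0565). Of 16 tested genes known to respond to NF-kB in epithelial cells, 8 rose and 4 fell with STS_apoEV, and 5 rose and 2 fell with DDP_apoEV. PLAU, the urokinase plasminogen activator, rose with both (0.92 with STS_apoEV and 0.61 with DDP_apoEV).

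**Figure D5:**
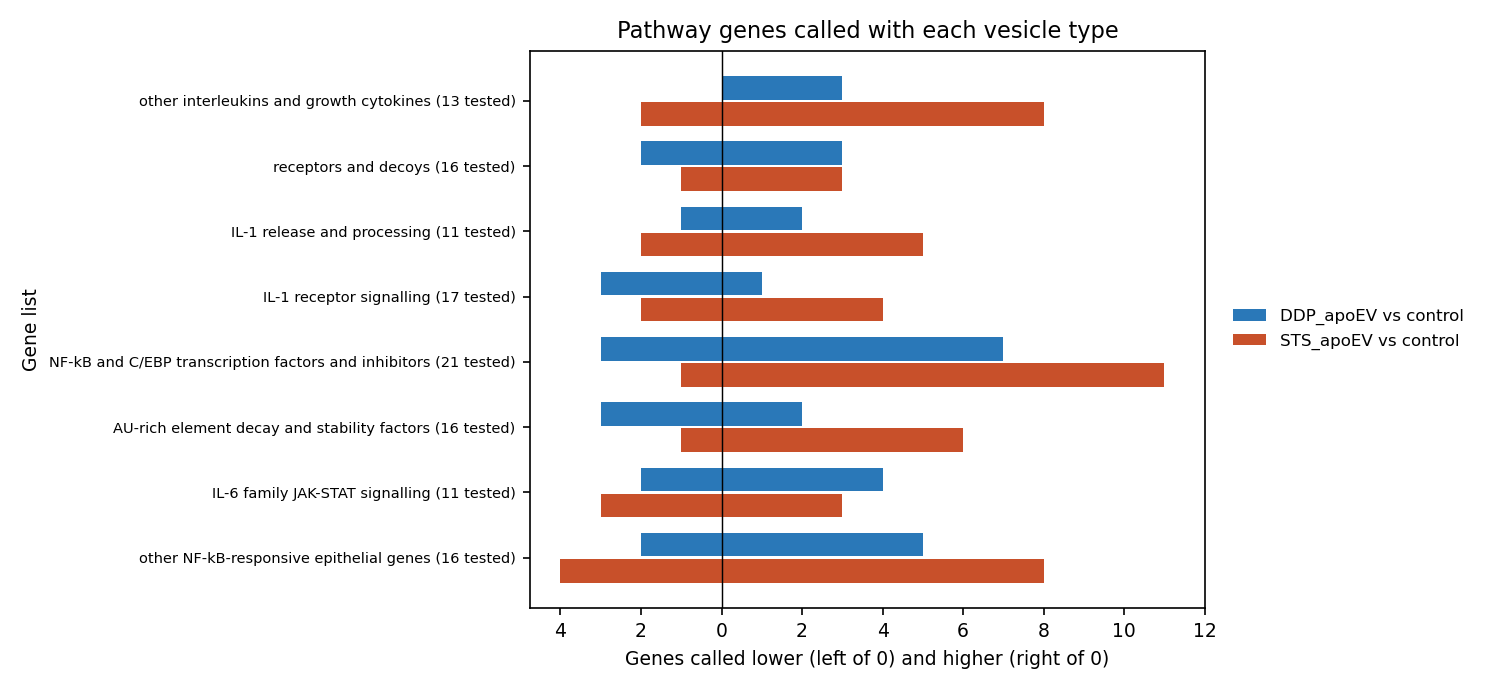
Number of genes called lower (left of 0) and higher (right of 0) against control in 8 lists around the 10 cytokines, blue for DDP_apoEV and red for STS_apoEV; the number tested stands after each list's name. The longest bar is the 11 of 21 tested genes higher with STS_apoEV in the NF-kB and C/EBP list, which also holds AP-1 subunits. Bars are counts, and the lists differ in size. Over all genes tested, 15.9% were higher and 16.8% lower with STS_apoEV, and 7.16% and 8.32% with DDP_apoEV.

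For the 3 members of highest mean level, the genes of most similar pattern were sought among 11423 genes by the Pearson correlation of log2 CPM over the 9 libraries. The libraries fall into 3 groups, so the correlations are a description of shared group differences, without a p. CXCL8 was most like CHGB (r = 0.996), TFPI (0.996) and TCP11L2 (0.995), and CXCL1 most like CHGB (0.993), TMEM165 (0.992) and ENSG00000267002 (0.991). CXCL5 was most like ENSG00000227619 (0.995), EIF4B (0.993) and SAT1 (0.991).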

How the data were processed

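The authors deposited raw read counts per gene as whole numbers and, in a separate table, FPKM, in which fragment numbers are divided by length and depth, for 9 libraries. Per the submitters' processing notes, featureCounts 1.5.0-p3 (Subread), StringTie 1.3.3b, HISAT2 2.0.5, limma and the build hg38 were used, in roles not given there. The library kit is not stated to keep the strand, so reads of overlapping or antisense genes cannot be told apart. Groups came from the sample titles. The deposited counts of all 62257 rows, 61552 of them Ensembl rows and 61399 with a symbol, were tested in edgeR 4.0.16 (R 4.3.3). The steps were TMM scaling, the default expression filter (10 counts, about 0.675 CPM in 3 libraries), 1 robust quasi-likelihood fit of all 9 libraries and Benjamini-Hochberg adjustment. The filter left 16947 genes. Rows named as not annotated, 0.313% to 0.357% of counts, were kept in the totals, the filter and the fit. CPM of genes uses TMM-scaled totals, and CPM of cell type markers uses unscaled totals. The SE is the log2 fold change divided by the root of the F statistic. Gene lengths of the deposited table were used as annotation only.

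The 10 genes, the gene lists, the motifs and the tests were chosen with earlier results of these data known. All 10 members are named, and other genes were taken from those of smallest adjusted p in each list (up to 4 with STS_apoEV against control and 3 in each other comparison) and from 12 receptors, antagonists and relatives fixed by name. One gene of these lists is not reported here. Promoters and starts are RefSeq's. The fit was tested on simulated counts. Alternatives used limma 3.58.1 and DESeq2 1.42.0. Replicates of a group differed by more than sampling noise (chi-square per degree of freedom 5.10 to 7.72). Intervals of counts cover counting error only.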

Additional observations from a re-analysis of the deposited data

How the results depend on the processing

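Across 524 refits of single members, 506 kept their direction and side of the threshold, 14 lost a call, 4 gained one and 0 reversed. All member calls of STS_apoEV against control and against DDP_apoEV were kept in every fit that could test the gene. Those lost or gained were all of DDP_apoEV against control. Limma on log2(FPKM + 1) called 3 members and 1617 genes there, or 1 member and 787 genes with no filter, and limma on log2(FPKM + 0.1) called 1638 genes, against 5 and 2623 in edgeR. CCL20 fell to -0.86 (adjusted p = 0.163) and CXCL3 to -0.42 (0.115) in limma with no filter, and CCL2 did not pass in any of the 3 limma fits of FPKM (0.0767 to 0.262). Limma with no filter called 3312 genes with STS_apoEV, against 5552, and 4352 between the vesicle types, against 6721. Without any 1 library, 1841 to 2830 genes and 3 to 6 members were called with DDP_apoEV, 4621 to 5638 and 8 to 8 with STS_apoEV, and 5856 to 6753 and 9 to 9 between the vesicle types. The cause of these shifts was not tested.

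Same-numbered replicates did not deviate together (correlations -0.0847 to 0.0547). This does not tell whether samples of the same number were handled together, which the labels do not state. A fit with the replicate block called 2359, 5297 and 6429 genes and 6, 8 and 9 members. It added CXCL1 with DDP_apoEV (-0.53, adjusted p = 0.0184), as did a fit with no filter on low counts (-0.55, adjusted p = 1.24e-07).

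IL1RAP and IL6ST, which did not pass against control, had log2 fold changes near 0 that changed sign. IL1RAP with DDP_apoEV ran from -0.0402 (without DDP_apoEV replicate 2) to 0.283, with STS_apoEV from -0.125 (without control replicate 3) to 0.103, with -0.00196 without STS_apoEV replicate 1 and -0.00265 without STS_apoEV replicate 3, and between the vesicle types from -0.254 to 0.0567 (without DDP_apoEV replicate 2). IL6ST with STS_apoEV ran from -0.0901 to 0.0689 (without control replicate 2), with 0.0596 without STS_apoEV replicate 2, and was 0.00947 with upper-quartile size factors. The chemokines CXCL16, CX3CL1 and CCL26, which did not pass against control either, also changed sign. CXCL16 ran from -0.187 to 0.0911 (without control replicate 1) with DDP_apoEV, with 0.0561 without DDP_apoEV replicate 3, and from -0.236 to 0.042 with STS_apoEV (without control replicate 1). CX3CL1 with DDP_apoEV ran from -0.716 to 0.768 (without control replicate 3) and was 0.00489 in limma-voom, and CCL26 with STS_apoEV ran from -0.179 (without STS_apoEV replicate 2) to 0.611. IL6 was tested by few alternatives, and IL1A, IL1B and IL6 rest on counts of at most 45 a library, which limits their precision.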
